A study of Mus musculus with 6 samples.

Results

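Chemokine ligand genes were examined in liver RNA of mice fed chow with or without polyethylene microplastic (PE-MP). They were taken as the rows of the count table whose symbol is Ccl, Cxcl, Cx3cl or Xcl followed by a number and at most 1 letter, which gave 39 of 56674 rows. Of these, 24 belong to the CC family, 13 to the CXC family and 2 (Cx3cl1 and Xcl1) to the small CX3C and XC families. Male C57BL/6 mice on chow containing PE-MP were set against male C57BL/6 mice on normal chow, with 3 liver libraries each. All were reared for 71 weeks, and the study asked what long intake of the plastic does to gene expression in the liver. The labels give no dose of PE-MP, and nothing in them ties a library to an animal of its own or says whether animals were pooled. The p-values therefore reflect only library-to-library spread, part of which may be technical.

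Chemokines are small secreted proteins that direct the movement of white blood cells, and their families are named for the spacing of conserved cysteines. They act through G protein-coupled receptors on the migrating cell, are held on tissue surfaces by heparan sulfate, and are removed by atypical receptors that bind them without G protein signalling. Some, called homeostatic, are made steadily and place cells in tissues. Others are induced by NF-kB or interferon in inflamed tissue, and in liver they are made by hepatocytes, Kupffer cells (the resident macrophages), sinusoidal endothelium, stellate cells and bile duct cells.

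Total counts lay between 75176645 and 91898953 in the PE-MP libraries and between 68357478 and 112566641 in the normal chow libraries. Albumin mRNA, which marks hepatocytes, stood at 53752 ± 1680 CPM (counts relative to library size, scaled by TMM factors) under PE-MP chow and 53144 ± 5483 CPM under normal chow (SD, n = 3 each). The TMM factors differed by chow, at 1.07, 1.09 and 1.17 in PE-MP libraries 1, 2 and 3 and 0.923, 0.879 and 0.900 in normal chow libraries 1, 2 and 3. A higher factor lowers the scaled CPM, so comparisons of levels between chows depend on them. The mRNAs encoded in mitochondria took 8.91% ± 0.279 of the counts under PE-MP chow and 14.6% ± 0.446 under normal chow. Normal chow library 2 stood apart from its group, with a score of 0.271 on the first principal component over all tested genes. The PE-MP libraries scored -30.3 to -27.8 there, and normal chow libraries 1 and 3 scored 46.6 and 40.2. Normal chow library 2 also had the smallest total and the highest share of counts in the 18S ribosomal RNA row Rn18s-rs5. That share was 11.2%, against 0.334% to 5.98% in the other libraries. Results below are given without that library where this changes a call.

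Of the 39 ligand genes, 25 were detected in liver, taken as a mean of at least 0.1 CPM of total counts over the 6 libraries. 13 of them reached a mean of 1 CPM and 2 a mean of 10 CPM. A count was present in every library for 23 genes, in some libraries for 12, and in none for 4. Those 4 were Cxcl3 and Cxcl15, which attract neutrophils, Ccl1, a ligand of Ccr8, and Ccl26. In these libraries 3 counts correspond to between 0.0279 and 0.0499 CPM, which is the level that a count of 0 still allows, for counting error only.

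Cxcl12, the homeostatic ligand of Cxcr4, was by far the most abundant. It took 85.6% of the summed CPM of all 39 genes, a share of reads that takes no account of length. Per kilobase of exon, its mean over the 6 libraries was 59.4 CPM per kilobase. On the same scale Ccl9, a rodent ligand of Ccr1, followed at 8.21, Ccl5, a ligand of Ccr1 made by T and NK cells, at 3.69, and the Cxcr3 ligand Cxcl9 at 3.07. Next came Ccl27a (2.94), Cxcl13 (2.74), Ccl6 (2.68), Cxcl1 (2.65), Ccl25 (2.39) and Cxcl16 (2.34 CPM per kilobase). Lengths are unions of the exons of coding transcripts and were available for 38 members. The ranks from Ccl5 down to Cxcl16 lie close together beside the spread of these genes over libraries, with coefficients of variation of 14.3% for Cxcl16 and Ccl6, 49.0% for Ccl5 and 82.3% for Cxcl13.

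**Figure D1:**
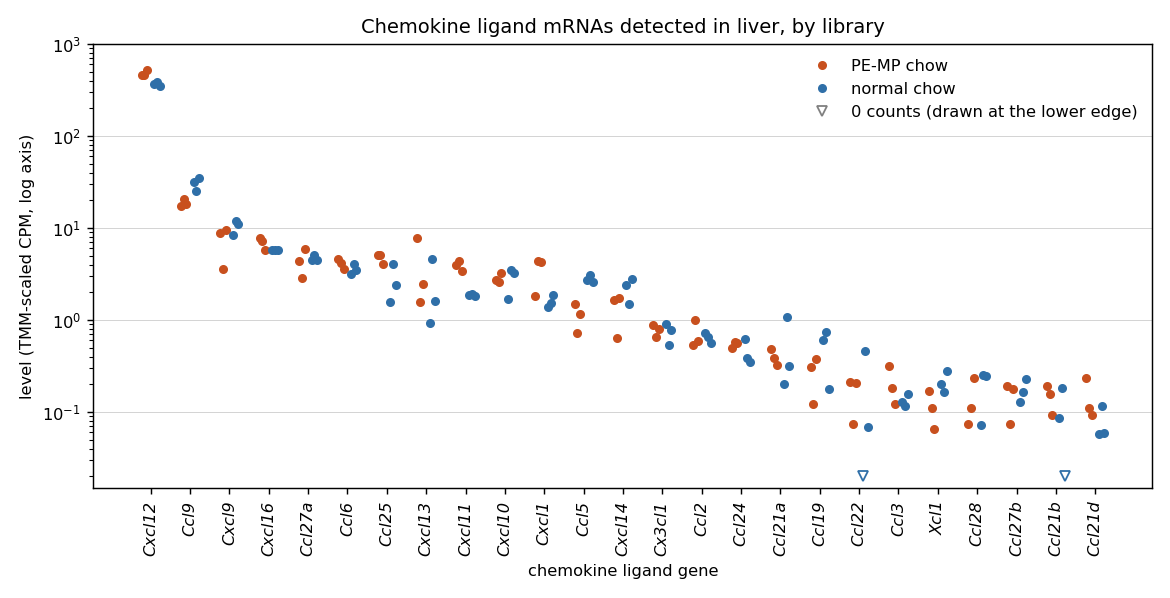
Level of the 25 detected chemokine ligand mRNAs in each liver library (TMM-scaled CPM, log axis); each point is 1 library, PE-MP chow in orange left of normal chow in blue, and open triangles are libraries with 0 counts. Cxcl12 lies at 347 to 526 CPM, and the next gene, Ccl9, at 17.5 to 34.6 CPM.

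Several members have near copies in the mouse genome. The share of windows of 50 bases in the coding transcripts that also occurs in transcripts of other genes was 100% for Ccl21b, 98.1% for Ccl27b, 71.6% for Ccl21a, 57.2% for Ccl19 and 53.3% for Ccl27a. Reads of these genes can be divided between copies or dropped, so their values, and those of Ccl21d, are uncertain. On the opposite strand, exons of Cxcl16 share 552 bases with Zmynd15, those of Xcl1 98 bases with Gm20743, those of Ccl25 56 bases with Elavl1 and those of Ccl27a 8 bases with Il11ra1. The kit keeps the strand but the strand setting of the counting is not given, so reads of these partners may be included.

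Between chows, 24 of the 39 genes had enough counts to be tested. No ligand passed the adjusted threshold of 0.05 in edgeR's quasi-likelihood test, in a table where 0.00554% of all tested genes passed upwards and 0% downwards. The smallest adjusted p among the ligands was 0.124. At an unadjusted p under 0.05 there were 4 ligands higher and 2 lower under PE-MP chow, where 9.10% of all tested genes lay higher and 8.82% lower. Together they are 6 of 24, against 17.9% of all genes. The 4 were Cxcl11, Cxcl12, Cxcl1 and Ccl25, and the 2 were Ccl5 and Ccl9. DESeq2 called 1 ligand higher (Cxcl11) and 2 lower (Ccl5 and Ccl9), where it called 3.10% of all genes higher, 3.48% lower and 6.57% in all, and limma-voom called 0. Without normal chow library 2, edgeR called Cxcl11 higher and Ccl9 lower, while 2.38% and 3.27% of all genes were called.

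The median log2 fold change of the 24 tested ligands was 0.053, against 0.018 for all 18043 genes tested. Of the 24, 13 were above 0 and 11 below, where 51.7% of all genes were above. Without normal chow library 2 the ligand median was 0.21, and without PE-MP library 1 it was -0.063. On TMM-scaled CPM the chows did not overlap for 5 ligands, 3 higher and 2 lower. Of all genes, 14.2% lay wholly higher, 11.8% wholly lower and 26.0% one or the other. For 7 ligands the whole 95% confidence interval was inside 1 log2 unit either side of 0, against 49.7% of all genes, and for 17 inside 2 log2 units, against 81.0%.

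**Figure D2:**
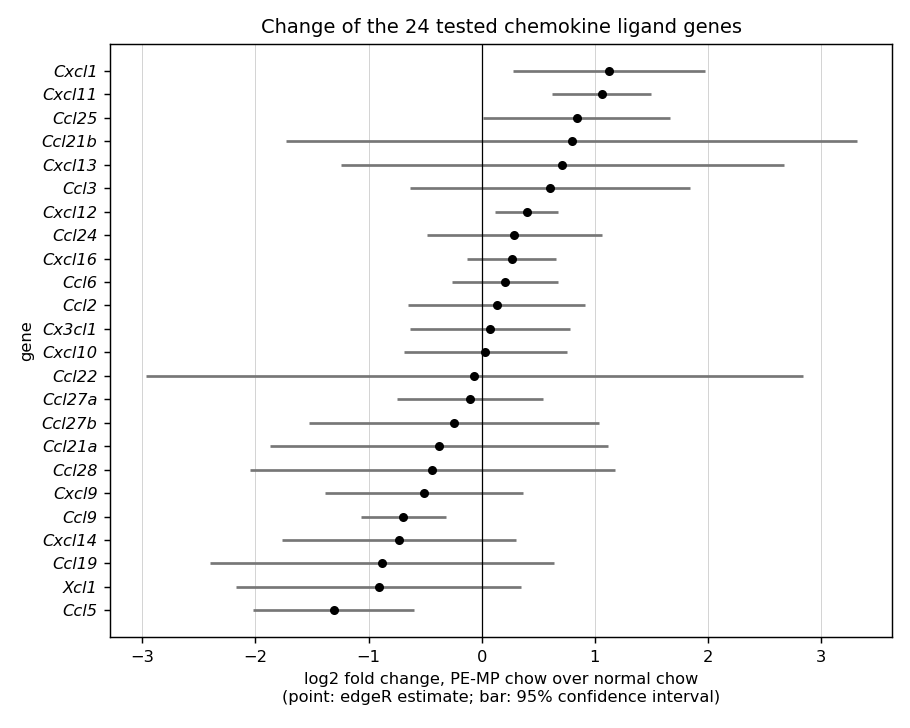
Log2 fold change of the 24 tested chemokine ligand genes, PE-MP chow over normal chow (x axis), with the edgeR estimate as a point and its 95% confidence interval as a bar. Intervals of 6 genes leave out 0, those of Cxcl1, Cxcl11, Ccl25 and Cxcl12 above it and those of Ccl9 and Ccl5 below it, and none of the 6 passed after adjustment over all genes.

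Cxcl9, Cxcl10 and Cxcl11 are induced by interferon, bind the same receptor, Cxcr3, and lie next to each other on mouse chromosome 5. They draw activated T cells and NK cells. In C57BL/6 mice the Cxcl11 gene is known to carry a frameshift, so that its mRNA gives no working chemokine. Cxcl11 mRNA stood at 3.94, 4.38 and 3.43 CPM in PE-MP libraries 1, 2 and 3 and at 1.88, 1.93 and 1.82 CPM in normal chow libraries 1, 2 and 3. The chows did not overlap, and the normal chow libraries lay close together, with an SD of 0.0571 CPM. The log2 fold change was 1.06 ± 0.18 (SE), a 2.09-fold higher level, with an edgeR adjusted p of 0.124. Across the alternatives the log2 fold change lay between 0.97 and 1.14, and the adjusted p between 0.000107 (DESeq2) and 0.379.

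The neighbours of Cxcl11 gave estimates near or below 0, with chows that overlapped. Cxcl10 stood at 2.72, 2.60 and 3.25 CPM in the PE-MP libraries and at 1.67, 3.48 and 3.23 CPM in the normal chow libraries, with normal chow library 1 below the PE-MP range, library 2 above it and library 3 inside it. Its log2 fold change was 0.03, with a 95% interval of -0.69 to 0.76. Cxcl9 stood at 8.80, 3.62 and 9.48 CPM in the PE-MP libraries and at 8.38, 11.9 and 11.0 CPM in the normal chow libraries, and PE-MP library 2 alone lay far below the rest. Its log2 fold change was -0.51 ± 0.37 (SE; edgeR adjusted p = 0.494).

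Ratios of counts within a library do not depend on the scaling, and 3 of them were computed after the values had been seen. The ratio of Cxcl11 to Cxcl9 was 0.448, 1.21 and 0.362 in PE-MP libraries 1, 2 and 3 and 0.225, 0.162 and 0.166 in the normal chow libraries, with no overlap (exact permutation p = 0.1, the smallest that 3 against 3 libraries can give; adjusted over the 3 ratios, 0.15). That of Cxcl10 to Cxcl9 was 0.309, 0.717 and 0.343 in the PE-MP libraries and 0.199, 0.293 and 0.294 in the normal chow libraries, also without overlap and with the same exact p. That of Cxcl11 to Cxcl10 was 1.40 ± 0.319 under PE-MP chow and 0.749 ± 0.329 under normal chow (SD, n = 3 each), and the chows overlapped (exact permutation p = 0.2; adjusted, 0.2). PE-MP library 2, the lowest in Cxcl9, held the highest of all 3 ratios.

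**Figure D3:**
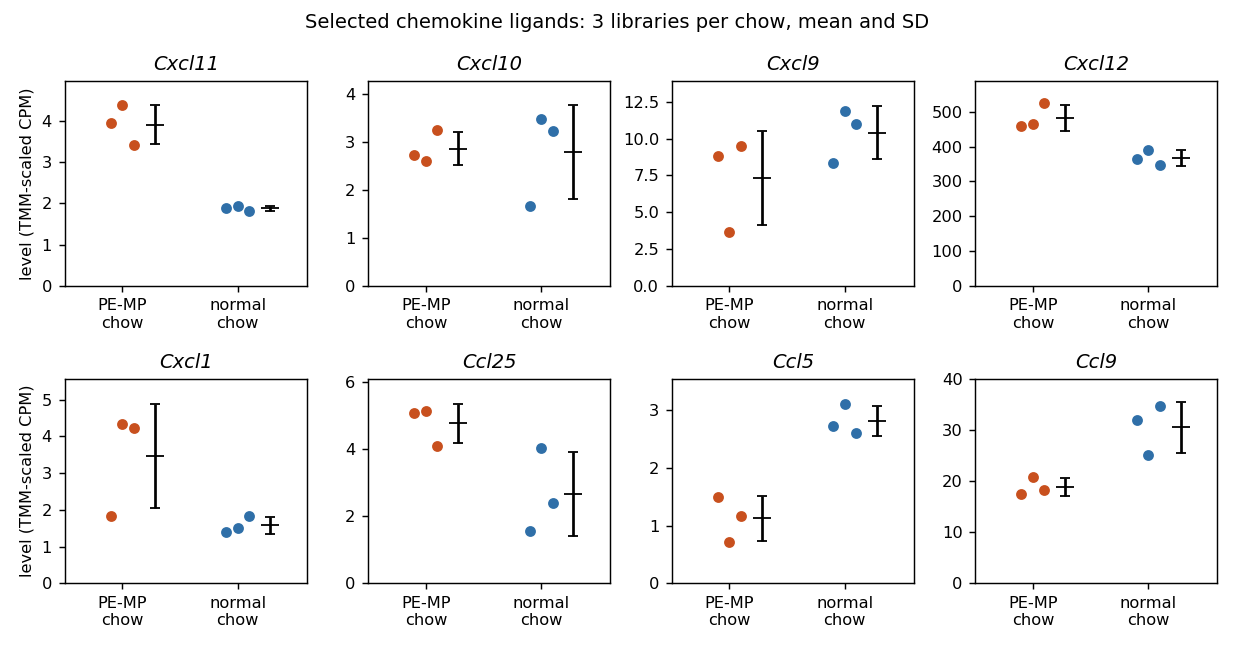
Level of 8 chemokine ligand mRNAs in each library (TMM-scaled CPM, linear axes that start at 0), PE-MP chow in orange left of normal chow in blue, with the mean and SD of 3 libraries beside the points. The chows do not overlap for Cxcl11, Cxcl12 and Ccl25, which were higher under PE-MP chow, or for Ccl5 and Ccl9, which were lower, while those of Cxcl10, Cxcl9 and Cxcl1 overlap.

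The upstream sequences of the chromosome 5 CXC genes Cxcl1, Cxcl10 and Cxcl9 are shown as examples of inflammatory CXC genes, chosen with their values known, and the levels of each overlapped between chows. Each is the 250 bases before the RefSeq start site in build GRCm38.p6, read 5′ to 3′ along the gene, with matches to 3 motifs in capitals. The motifs, searched on both strands, were the kappa B site GGGANNNTCC, the interferon-stimulated response element GAAANNGAAA and the gamma-activated site TTCNNNGAA.
Cxcl1, chr5:90890995-90891244, plus strand: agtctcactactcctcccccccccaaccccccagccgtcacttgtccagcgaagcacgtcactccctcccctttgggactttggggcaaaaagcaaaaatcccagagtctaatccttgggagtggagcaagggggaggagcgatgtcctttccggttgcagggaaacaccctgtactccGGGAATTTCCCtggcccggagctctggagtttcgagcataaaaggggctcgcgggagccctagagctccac
Cxcl10, chr5:92348890-92349139, minus strand: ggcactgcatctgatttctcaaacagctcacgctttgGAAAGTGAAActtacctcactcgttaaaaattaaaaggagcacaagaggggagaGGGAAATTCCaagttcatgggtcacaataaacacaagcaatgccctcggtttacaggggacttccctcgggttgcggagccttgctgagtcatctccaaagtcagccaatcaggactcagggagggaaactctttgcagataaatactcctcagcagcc
Cxcl9, chr5:92328080-92328329, minus strand: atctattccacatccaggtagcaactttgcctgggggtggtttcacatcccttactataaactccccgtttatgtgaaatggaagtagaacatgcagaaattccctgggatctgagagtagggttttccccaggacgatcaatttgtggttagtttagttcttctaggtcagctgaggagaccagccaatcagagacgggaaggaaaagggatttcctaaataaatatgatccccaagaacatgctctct
The match in Cxcl1 begins 71 bases before the start site and reads as a kappa B site on either strand, as 2 overlapping matches. Cxcl10 holds an interferon-stimulated response element 213 bases before the start site and a kappa B site 159 bases before it, and the window of Cxcl9 holds none of these letters. Among the 28 members with a window in the table, 6 held the kappa B letters (Cxcl1, Cxcl2, Cxcl3, Cxcl10, Ccl1 and Ccl22), where 4.41% of 27025 genes did. The response element stood in 3 members (Cxcl10, Cxcl14 and Ccl19) against 3.46% of all genes, and the gamma-activated site in 2 (Ccl17 and Cxcl14) against 8.13%. Cxcl11, Ccl5 and Cxcl16 had no window and were not searched.

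The ligands of Cxcr2, which draw neutrophils, were represented mainly by Cxcl1, made by hepatocytes and other liver cells on NF-kB signals. Cxcl1 stood at 1.83, 4.34 and 4.22 CPM in PE-MP libraries 1, 2 and 3 and at 1.40, 1.51 and 1.85 CPM in the normal chow libraries. PE-MP libraries 2 and 3 lay above all others, and PE-MP library 1 lay within the normal chow range. The log2 fold change was 1.12 ± 0.36 (SE; edgeR adjusted p = 0.197), between 0.93 and 1.44 across the alternatives. Cxcl2 was too low to test, with 10, 16 and 7 counts in the PE-MP libraries and 3, 0 and 4 counts in the normal chow libraries, and Cxcl5 had at most 18 counts in a library. Cxcl2 is named here after its values were seen.

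Among 10 neutrophil markers, 5 could be tested and all 5 had log2 fold changes above 0, with a median of 1.21, 3 higher at an unadjusted p under 0.05 and 0 past the edgeR threshold. Over all genes 9.10% lay higher and 8.82% lower at that p, and the marker counts of other cell types below are read beside the same shares. Their summed level, over all 10, was 4.25 to 4.88 CPM under PE-MP chow and 1.96 to 2.66 CPM under normal chow. S100a9, which neutrophils store in their cytoplasm, gave 1.53 ± 0.27 on the log2 scale (SE; adjusted p = 0.124 in edgeR) and the granulocyte receptor Csf3r 1.21 ± 0.34 (SE; adjusted p = 0.173). The defining markers Ly6g and Camp had 0 counts in every library. The part of neutrophil content in the level of Cxcl1 was not tested.

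Homeostatic ligands form the largest group, with 10 of 13 members tested. At an unadjusted p under 0.05 edgeR placed 2 higher and 0 lower, which is 2 of 10 and near the 17.9% of all genes. Cxcl12 stood at 460, 464 and 526 CPM in PE-MP libraries 1, 2 and 3 and at 365, 390 and 347 CPM in normal chow libraries 1, 2 and 3. The chows did not overlap, and the difference was modest in size, with a log2 fold change of 0.40 ± 0.12 (SE), or 1.32-fold (edgeR adjusted p = 0.182). Its abundance makes the summed CPM of all ligands follow it. That sum was 551 ± 37.4 under PE-MP chow and 443 ± 22.1 under normal chow (SD, n = 3 each; exact permutation p = 0.1). Without Cxcl12 the TMM-scaled sums were 67.2 ± 5.01 under PE-MP chow and 75.7 ± 4.78 under normal chow, and the chows overlapped (exact permutation p = 0.2). That order depends on the TMM factors, since on CPM of total counts the PE-MP mean without Cxcl12 stayed the higher.

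Sinusoidal endothelial cells and stellate cells are known sources of Cxcl12 in liver. The 12 endothelial markers, all tested, had a median log2 fold change of 0.28 with 11 above 0, and their summed level was 255 to 328 CPM under PE-MP chow and 230 to 246 CPM under normal chow. The 13 stellate cell and fibroblast markers had a median of -0.35 with 12 below 0, and their summed level was 224 to 419 CPM under PE-MP chow and 419 to 427 CPM under normal chow. At an unadjusted p under 0.05 edgeR placed 2 endothelial markers higher and 3 stellate markers lower, 0 of either list passed its threshold, and none was at 0 in all libraries. The part of cell content in the level of Cxcl12 was not tested.

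Ccl25, known from thymus and small intestine as the ligand of Ccr9, stood at 5.08, 5.14 and 4.11 CPM in PE-MP libraries 1, 2 and 3 and at 1.57, 4.03 and 2.41 CPM in the normal chow libraries. The chows did not overlap, although normal chow library 2 came within a small step of PE-MP library 3. The log2 fold change was 0.84 ± 0.35 (SE; edgeR adjusted p = 0.274), and 1.25 without normal chow library 2. Without normal chow library 1 it was 0.57.

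Cxcl13, which draws B cells through Cxcr5, varied widely within each chow. It stood at 7.72, 1.55 and 2.45 CPM in the PE-MP libraries and at 0.928, 4.66 and 1.59 CPM in the normal chow libraries. PE-MP library 1 and normal chow library 2 were high, and the other 4 libraries were low whatever the chow. The log2 fold change of 0.71 ± 0.81 (SE) turned to -0.26 without PE-MP library 1 and was 1.62 without normal chow library 2.

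The 10 B and plasma cell markers, all tested, had a median log2 fold change of -1.14, with 9 below 0, 1 higher and 5 lower at an unadjusted p under 0.05 (all genes, 9.10% and 8.82%) and 0 past the edgeR threshold. Their summed level was 20.1 to 63.9 CPM under PE-MP chow and 22.4 to 192 CPM under normal chow. It was highest in normal chow library 2 (192 CPM) and next in PE-MP library 1 (63.9 CPM), the same libraries in which Cxcl13 was high. The order differed, as Cxcl13 was higher in PE-MP library 1. Normal chow library 1 followed in the marker sum at 47.2 CPM, and it held the lowest Cxcl13 (0.928 CPM). Their part in the level of Cxcl13 was not tested.

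Cxcl14 stood at 1.64, 0.635 and 1.75 CPM in the PE-MP libraries and at 2.41, 1.48 and 2.78 CPM in the normal chow libraries, and the chows overlapped (log2 fold change -0.73 ± 0.43, SE; edgeR adjusted p = 0.416). Ccl27a, known as a skin chemokine that binds Ccr10, stood at 4.41, 2.87 and 5.85 CPM in the PE-MP libraries and at 4.53, 5.11 and 4.50 CPM in the normal chow libraries. PE-MP library 2 was the lowest and PE-MP library 3 the highest, and the log2 fold change of -0.11 turned to 0.12 without PE-MP library 2. Ccl19, which with Ccl21 brings T cells and dendritic cells into lymphoid tissue through Ccr7, had 29, 10 and 41 counts in the PE-MP libraries and 42, 45 and 18 counts in the normal chow libraries. Its log2 fold change was -0.88, with a 95% interval of -2.40 to 0.64. Ccl21a, Ccl21b, Ccl27b and Ccl28 had at most 64 counts in a library, log2 fold changes between -0.44 and 0.80, and overlapping chows.

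The ligands of Ccr1 and related receptors held the members with the clearest lower values. Ccl5 stood at 1.49, 0.720 and 1.17 CPM in PE-MP libraries 1, 2 and 3 and at 2.71, 3.09 and 2.60 CPM in normal chow libraries 1, 2 and 3. Every PE-MP library lay below every normal chow library, and PE-MP library 2 was the lowest. The log2 fold change was -1.31 ± 0.30 (SE; edgeR adjusted p = 0.137), a 2.48-fold lower level, and it lay between -1.56 and -1.08 across the alternatives. DESeq2 called it (adjusted p = 0.00353). In bulk tissue, fewer cells of a type and less RNA per cell cannot be told apart.

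T and NK cells are the known main makers of Ccl5. Of their 16 markers 14 were tested, 12 of them with log2 fold changes below 0, at a median of -0.67. edgeR placed 1 higher and 2 lower at an unadjusted p under 0.05, and 0 passed its threshold. Their summed level was 4.58 to 8.38 CPM under PE-MP chow and 7.79 to 12.2 CPM under normal chow, so the chows overlapped. It was lowest in PE-MP library 2, and none was at 0 in all libraries. Cd8a gave -1.24 ± 0.45 on the log2 scale (SE; adjusted p = 0.231 in edgeR), and the NK cell receptor gene Klrb1c 0.89 ± 0.33 (SE; adjusted p = 0.236). Xcl1, which NK cells and CD8 T cells release, had 16, 9 and 7 counts in the PE-MP libraries and 14, 10 and 28 counts in the normal chow libraries, with overlapping CPM and -0.91 ± 0.53 on the log2 scale (SE; adjusted p = 0.407 in edgeR). The part of T and NK cell content in the level of Ccl5 was not tested.

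Ccl9 stood at 17.5, 20.7 and 18.3 CPM in PE-MP libraries 1, 2 and 3 and at 31.9, 25.0 and 34.6 CPM in normal chow libraries 1, 2 and 3. On TMM-scaled CPM the chows again did not overlap, and the normal chow library nearest to the PE-MP libraries was library 2. On CPM of total counts they did overlap, with PE-MP library 2 (1700 of 75176645 counts) above normal chow library 2 (1503 of 68357478 counts). The log2 fold change was -0.69 ± 0.16 (SE; edgeR adjusted p = 0.137), a 1.62-fold lower level. Without normal chow library 2 it was -0.82 with an edgeR adjusted p of 0.0352, and DESeq2 called it on all libraries (adjusted p = 0.00720). Across the alternatives the estimate lay between -0.82 and -0.60.

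Ccl6, its neighbour on chromosome 11 and also a rodent ligand of Ccr1, showed no difference larger than the spread of libraries. It stood at 4.64, 4.21 and 3.56 CPM in the PE-MP libraries and at 3.13, 4.11 and 3.53 CPM in the normal chow libraries (log2 fold change 0.20 ± 0.20, SE; edgeR adjusted p = 0.613). Ccl3, an inflammatory ligand of Ccr1, had 30, 15 and 13 counts in the PE-MP libraries and 9, 7 and 16 counts in the normal chow libraries, and gave 0.61 ± 0.52 on the log2 scale (SE; adjusted p = 0.570 in edgeR). Ccl4, an inflammatory chemokine close to Ccl3, had at most 19 counts in a library and was not tested.

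Macrophages are a known source of Ccl6 and Ccl9, and the 13 Kupffer cell markers, all tested, had a median log2 fold change of 0.63, with 13 above 0, 5 higher at an unadjusted p under 0.05 and 0 past the edgeR threshold. Their summed level was 204 to 334 CPM under PE-MP chow and 149 to 205 CPM under normal chow, an overlap by a small step. On the same TMM-scaled CPM, Ccl9 was lower in every PE-MP library, while on CPM of total counts its chows overlapped. The 11 markers of monocytes and infiltrating macrophages had a median of -0.17 with 1 lower at an unadjusted p under 0.05 and 0 past the threshold, and their sums overlapped, at 59.5 to 87.4 CPM under PE-MP chow and 44.9 to 82.0 CPM under normal chow. No marker of either list was at 0 in all libraries. Their part in the level of Ccl9 was not tested.

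The ligands of Ccr2, which bring monocytes out of the blood, were low. Ccl2 had 51, 82 and 63 counts in the PE-MP libraries and 51, 39 and 57 counts in the normal chow libraries, with a log2 fold change of 0.13 and a 95% interval of -0.65 to 0.91. Ccl7 and Ccl12 had at most 10 counts in a library. Ccl8 had 4, 0 and 0 counts in the PE-MP libraries and 0, 32 and 0 counts in the normal chow libraries, so nearly all of its counts came from normal chow library 2. Ccl24, an eosinophil attractant made by macrophages, had 47, 47 and 61 counts in the PE-MP libraries and 43, 23 and 35 counts in the normal chow libraries, and its log2 fold change was 0.29 with a 95% interval of -0.48 to 1.06. Ccl22, a ligand of Ccr4 made by dendritic cells, had at most 28 counts in a library and a log2 fold change of -0.07 ± 1.22 (SE). The other members of these groups (Ccl11, Ccl17 and, among the homeostatic genes, Ccl20 and Cxcl17) had at most 9 counts in a library.

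Cxcl16 and Cx3cl1 are made as membrane-bound proteins that also hold cells in place. Cxcl16, which sinusoidal endothelium uses to keep Cxcr6-positive NKT cells in mouse liver, stood at 7.72, 7.22 and 5.76 CPM in the PE-MP libraries and at 5.72, 5.82 and 5.70 CPM in the normal chow libraries. PE-MP libraries 1 and 2 were higher and PE-MP library 3 lay within the normal chow range, with a log2 fold change of 0.26 and a 95% interval of -0.13 to 0.65 (edgeR adjusted p = 0.436). Cx3cl1 had a log2 fold change of 0.07 with an interval of -0.63 to 0.78.

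Chemokine genes with other names fall outside the symbol rule. Pf4 and Ppbp, the platelet chemokines also known as Cxcl4 and Cxcl7, were both lower without overlap, where 11.8% of all genes lay wholly lower. Pf4 stood at 0.212, 0.232 and 0.242 CPM in the PE-MP libraries and at 0.457, 0.716 and 0.543 CPM in the normal chow libraries (log2 fold change -1.32 ± 0.32, SE; edgeR adjusted p = 0.144). Ppbp averaged 0.326 ± 0.139 CPM under PE-MP chow and 0.610 ± 0.140 CPM under normal chow (SD, n = 3 each; edgeR adjusted p = 0.314). The 8 platelet markers, a list that holds both genes, summed to 6.20 to 8.25 CPM under PE-MP chow and 7.14 to 9.69 CPM under normal chow. Of the 8, 4 were tested and all 4 had log2 fold changes below 0, with a median of -0.52. At an unadjusted p under 0.05 edgeR placed 0 of them higher and 1 lower, and 0 passed its threshold. The part of platelet content was not tested.

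On the receptor side, 19 of 23 chemokine receptor genes were tested and edgeR called 0, as did DESeq2 and limma-voom. At an unadjusted p under 0.05, edgeR placed 1 higher and 2 lower, which is 3 of 19 and near the 17.9% of all genes. Their median log2 fold change was 0.25, with 11 of 19 above 0, where 51.7% of all genes were above. The median fell to 0.056 when normal chow library 1 was left out and rose to 0.43 when library 2 of that chow was. With no expression filter all 23 receptors were fitted, 11 were above 0 and the median was -0.13. The sign of the receptor median therefore depended on the filter. Ccr9, the receptor of Ccl25, stood at 0.719, 0.525 and 0.474 CPM in PE-MP libraries 1, 2 and 3 and at 0.257, 0.333 and 0.148 CPM in the normal chow libraries, without overlap (log2 fold change 1.23 ± 0.40, SE; edgeR adjusted p = 0.200). Ccl25 and Ccr9 both lay higher in every PE-MP library, where 14.2% of all genes lay wholly higher, and edgeR called neither. The receptor level was low, at 15 to 68 counts, and a link between the 2 genes was not tested.

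Of the receptors of Cxcl12, Ackr3 was lower without overlap and Cxcr4 overlapped between chows. Ackr3, the atypical receptor that takes up Cxcl12 and Cxcl11, stood at 0.412, 0.171 and 0.279 CPM in the PE-MP libraries and at 0.571, 0.732 and 0.533 CPM in the normal chow libraries, without overlap (log2 fold change -1.08 ± 0.39, SE; edgeR adjusted p = 0.232). Cxcr4 averaged 0.370 ± 0.0831 CPM under PE-MP chow and 0.650 ± 0.336 CPM under normal chow (SD, n = 3 each; edgeR adjusted p = 0.424). Cxcr5, the B cell receptor of Cxcl13, stood at 0.349, 0.207 and 0.437 CPM in the PE-MP libraries and at 0.985, 1.13 and 0.454 CPM in the normal chow libraries. The chows were parted by a small step only on this scale, and overlapped on CPM of total counts (log2 fold change -1.35 ± 0.46, SE; edgeR adjusted p = 0.210).

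Of the receptors with the highest CPM, 5 are described here, and their chows overlapped. They were the scavenger Ackr2, which clears inflammatory CC chemokines (log2 fold change -0.23 ± 0.20), the scavenger of homeostatic CC chemokines Ackr4 (0.43 ± 0.34), the monocyte receptor Ccr2 (0.92 ± 0.41), the non-signalling Ccrl2 (0.16 ± 0.27) and Cxcr6 (0.41 ± 0.33; all SE). Ccr2 stood at 1.85, 1.71 and 1.32 CPM in the PE-MP libraries and at 0.485, 1.38 and 0.721 CPM in the normal chow libraries, and normal chow library 2 alone reached the PE-MP range (edgeR adjusted p = 0.297). Cxcr3, the receptor of Cxcl9, Cxcl10 and Cxcl11, averaged 0.625 ± 0.227 CPM under PE-MP chow and 0.735 ± 0.228 CPM under normal chow (SD, n = 3 each). Ccr6, Ccr3, Ccr4 and Ccr8 were too low to test, and the 29 counts of Ccr6 all came from normal chow library 2.

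**Figure D4:**
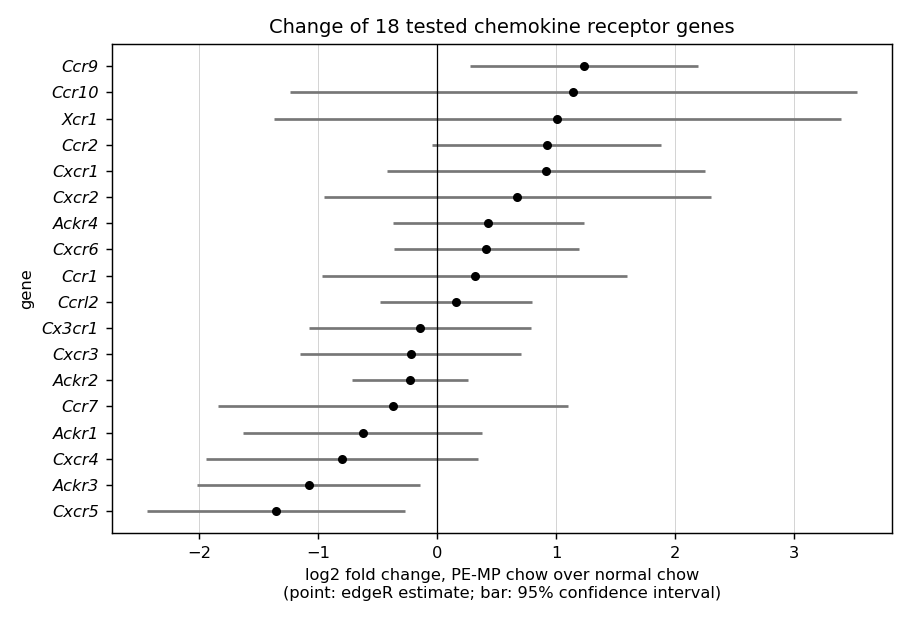
Log2 fold change of 18 of the 19 tested chemokine receptor genes, PE-MP chow over normal chow (x axis), with the edgeR estimate as a point and its 95% confidence interval as a bar. Ccr9 lies above 0 and Ackr3 and Cxcr5 below it with intervals that leave out 0, and none of the 18 passed after adjustment over all genes.

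Genes of the signals that induce chemokines were looked at from fixed lists. Of 16 genes of the interferon axis 15 were tested, 11 with log2 fold changes below 0, a median of -0.21 and 0 past the edgeR threshold. At an unadjusted p under 0.05 there were 0 higher and 5 lower, against 9.10% and 8.82% of all genes, and 5 lay wholly lower under PE-MP chow, against 11.8% of all genes. Irf7, a transcription factor of the interferon response, averaged 32.0 ± 5.49 CPM under PE-MP chow and 57.3 ± 11.0 CPM under normal chow (SD, n = 3 each; log2 fold change -0.84 ± 0.19, SE; edgeR adjusted p = 0.137). Ifng, which codes for interferon gamma, had 13, 2 and 3 counts in the PE-MP libraries and 0, 7 and 4 counts in the normal chow libraries. Irf7 had the smallest p of the interferon list and was lower in every PE-MP library than in every normal chow library. The part of interferon signals in the level of Cxcl11 was not tested.

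Of 13 NF-kB genes and cytokines 12 were tested, with a median log2 fold change of 0.06, 8 above 0 and 0 past the edgeR threshold. At an unadjusted p under 0.05 edgeR placed 1 higher and 0 lower, against 9.10% and 8.82% of all genes. The cytokine Il1b stood at 1.51, 1.22 and 0.790 CPM in the PE-MP libraries and at 0.0999, 0.666 and 0.365 CPM in the normal chow libraries, without overlap (log2 fold change 1.65 ± 0.62, SE; edgeR adjusted p = 0.241). The inhibitor of NF-kB Nfkbia, an early target of the pathway, gave -0.21 ± 0.18 on the log2 scale (SE; adjusted p = 0.584 in edgeR). Il6 had 0 counts in every library.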

How the data were processed

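Total RNA from liver was made into poly(A)-selected libraries with a directional kit, per the labels' protocols. For each gene symbol the authors deposited whole-number read counts whose totals differ between libraries, with no normalisation. bcl2fastq and build GRCm39 are named, per the submitters' processing notes. The sources used here name no aligner, counting program, annotation or strand setting. The 6 files of single libraries equalled the matching columns of the whole-series table on all 56674 rows, so only the table was analysed.

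Differences between chows were tested in R 4.3.3 with edgeR 4.0.16 (TMM factors, default expression filter, robust quasi-likelihood F test, two-sided, Benjamini-Hochberg adjustment over the 18043 genes tested, threshold 0.05). DESeq2 1.42.0, limma-voom (limma 3.58.1), other library factors (RLE, upper quartile) and 2 other expression filters were tried as alternatives, as were leaving out each library, a replicate block, leaving out rows over 1% of a library, and an adjusted p of 0.1. Levels are CPM computed from the deposited counts and scaled by the TMM factors. Exon lengths and transcripts came from GENCODE M21 (GRCm38) and promoter sequences from RefSeq (GRCm38.p6). Permutation tests were exact and two-sided.

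Members and gene lists were chosen with earlier results of these data known. Values per library are given for the 12 members with the highest mean CPM, the 6 with the smallest p in each direction and tested members whose chows did not overlap. Other members are given by raw counts, fold change or range. Receptors are named if among the 6 highest by mean CPM or without overlap. Single values of some genes are not reported here, though counts and medians of their lists include them.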

Additional observations from a re-analysis of the deposited data

How the results depend on the processing

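Over all genes, edgeR called 1 gene higher and 0 lower under PE-MP chow. It called 2 and 1 with RLE factors, 15 and 8 with no expression filter, 11 and 11 with the stricter filter (1 CPM or more throughout a chow), and 24 and 29 at an adjusted p of 0.1. DESeq2 called 559 and 627, and limma-voom 7 and 12. Leaving out 1 library at a time gave 1 to 452 genes higher and 0 to 623 lower, with the highest counts without normal chow library 2. Whether replicate numbers pair the libraries could not be decided with 3 libraries per chow. Deviations from the group mean correlated at 0.0496, 0.0850 and 0.183 for the same number and between -0.184 and 0.105 for different numbers. PE-MP libraries 2 and 3 correlated best with their own number, and PE-MP library 1 with normal chow library 2. With the replicate block 0 genes were called in either direction and 0 ligands.

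Ligands called numbered 3 with DESeq2 and 2 without normal chow library 2, against 0 under every other alternative run; leaving out 1 library gave 0 to 2. The ligand median of 0.053 was 0.22 with the stricter filter and lay between -0.063 (without PE-MP library 1) and 0.21 with 1 library left out. The receptor median of 0.25 was -0.13 with no expression filter, and between 0.056 and 0.43 with 1 library left out, and 0 receptors were called under any alternative. With a mean of at least 1 CPM as the limit, 13 ligands were detected in place of 25; with 0.05 CPM there were 29.

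Of 25 named ligands and receptors, 21 kept the sign of the log2 fold change under all 14 alternative fits that could test them. The exceptions were Ccl27a (0.12 without PE-MP library 2, with a range of -0.38 to 0.12 over left-out libraries), Cxcl10 (-0.08 without PE-MP library 3 and -0.23 without normal chow library 1), Cxcl13 (-0.26 without PE-MP library 1, range -0.26 to 1.62) and Ccrl2 (-0.018 without PE-MP library 3, range -0.018 to 0.25). The causes were not tested. Depth limits genes with few counts: 15 of 39 ligands could not be tested.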

Other observations

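Genes that carry or shape the chemokine signal were measured as 2 further lists. Of 20 genes that act behind chemokine receptors, all were tested, with a median log2 fold change of 0.01, 11 above 0 and 0 past the edgeR threshold. At an unadjusted p under 0.05 edgeR placed 2 higher and 1 lower, against 9.10% and 8.82% of all genes. Gnai2, which codes for the inhibitory G protein subunit that chemokine receptors use, averaged 71.0 ± 1.15 CPM under PE-MP chow and 96.2 ± 12.1 CPM under normal chow (SD, n = 3 each; log2 fold change -0.44 ± 0.13, SE; edgeR adjusted p = 0.176). The receptor kinase Grk3 averaged 2.15 ± 0.234 CPM under PE-MP chow and 1.41 ± 0.292 CPM under normal chow (SD, n = 3 each; log2 fold change 0.61 ± 0.23, SE; edgeR adjusted p = 0.247).

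Of 13 genes for proteases that trim chemokines and for heparan sulfate, on which chemokines are held, 12 were tested, at a median of 0.10 on the log2 scale with 7 above 0. edgeR placed 0 past its threshold and 0 at an unadjusted p under 0.05, against 17.9% of all genes. The gelatinase Mmp2 averaged 1.32 ± 0.305 CPM under PE-MP chow and 1.97 ± 0.200 CPM under normal chow, without overlap (SD, n = 3 each; log2 fold change -0.58 ± 0.25, SE; edgeR adjusted p = 0.285). The heparan sulfate polymerase gene Ext1 gave -0.28 ± 0.15 on the log2 scale (SE; adjusted p = 0.366 in edgeR).

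Other marker lists gave these values. The 8 dendritic cell markers summed to 6.13 to 8.22 CPM under PE-MP chow and 4.44 to 7.35 CPM under normal chow. Bile duct cell markers summed to 31.1 to 40.1 CPM under PE-MP chow and 28.3 to 42.6 CPM under normal chow. Mesothelial markers summed to 111 to 150 CPM under PE-MP chow and 147 to 197 CPM under normal chow. The median log2 fold changes of these 3 lists were 0.45, -0.02 and -0.27. Fat cell markers summed to 9.44 to 20.4 CPM under PE-MP chow and 20.6 to 73.4 CPM under normal chow, parted by a small step. Of 7 fat cell markers 4 were tested, all 4 below 0, at a median of -2.44. At an unadjusted p under 0.05 edgeR placed 0 of them higher and 3 lower, against 9.10% and 8.82% of all genes, and 0 passed its threshold. The part of fat cell content in the ligand levels was not tested.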
